A study of Mus musculus with 15 samples.

Results

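The autophagy machinery genes are 42 mouse genes that encode the proteins which build an autophagosome, load it with cargo and deliver it to the lysosome. They were taken by symbol from the gene count table, and all 42 were found among its 40481 genes and passed the filter on low counts, which left 17991 genes to test. By step they are 5 genes of initiation, 6 of nucleation, 6 of membrane expansion, 10 of the conjugation system, the 5 ATG8 family genes, 5 cargo receptor genes, 4 genes of tethering and fusion, and the transcription factor gene Foxo3.

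Autophagy encloses a portion of cytoplasm in a double membrane, which then fuses with a lysosome so that the contents are degraded and reused. A kinase complex starts the process, a lipid kinase complex marks the membrane, and conjugation enzymes attach small ATG8 proteins to it, to which cargo receptors bind. The retinal pigment epithelium (RPE) is a layer of cells that rarely divide, and it uses autophagy to clear its own organelles. It also uses part of the same machinery to attach LC3, an ATG8 protein, to the single membranes that enclose shed photoreceptor outer segments.

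RNA was sequenced from the RPE/choroid complex, the RPE with the vascular layer beneath it, in 8 INK-ATTAC and 7 control libraries. Mice of both groups were flox/flox for Abca1/Abcg1, which encode cholesterol efflux transporters, and carried LysM-Cre, a Cre driven by the myeloid gene Lyz2. The mice of the first group also carried INK-ATTAC and the control mice did not. INK-ATTAC is a transgene that puts an FKBP and caspase 8 fusion under the promoter of p16Ink4a, and the drug AP20187 joins the fusion proteins and so kills cells that use that promoter. AP20187 (i.p) is the labelled treatment of both groups, and the submitters describe dosing of INK-ATTAC mice on every second day, continued for 3 months. No age of the mice is stated, nor whether each library came from its own animal, so p-values measure the spread between these libraries.

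The libraries held 39121503 to 65065950 counts. Cdkn2a, which encodes p16Ink4a, had 6 counts over the INK-ATTAC libraries and 7 over the controls, with at most 4 in 1 library, so the removal of cells that use its promoter could not be followed through this transcript. Log2 fold changes, always INK-ATTAC over control, were -0.06 for Abca1 (SE 0.12), -0.13 for Abcg1 (SE 0.22), -0.03 for Casp8 (SE 0.08), 0.08 for Fkbp1a (SE 0.06) and -0.16 for Lyz2 (SE 0.10), and none passed the edgeR test. Markers of the RPE were abundant, with a summed level of 70120 to 95450 counts scaled to a fixed library size (CPM) in INK-ATTAC libraries and 63660 to 84790 CPM in controls. Markers of skeletal muscle, lens and rod photoreceptors were also present. All 16 skeletal muscle markers had positive fold changes, with a median of 0.82 on the log2 scale and an unadjusted p under 0.05 for 4, and sums of 739 to 3564 CPM in INK-ATTAC libraries and 341 to 2526 CPM in controls. Of 13 lens markers 11 could be tested and all 11 had positive fold changes, with a median of 2.74 on the log2 scale and an unadjusted p under 0.05 for 9. They had sums of 21.02 to 2751 CPM in INK-ATTAC libraries and 20.9 to 626 CPM in controls, with medians of 169.5 CPM in INK-ATTAC libraries and 31.6 CPM in controls. Rod photoreceptor markers had negative fold changes in 11 of 12, with sums of 458 to 2463 CPM in INK-ATTAC libraries and 783 to 2713 CPM in controls. Fold changes were negative for all 5 melanocyte markers, 7 of 9 macrophage markers and all 7 erythrocyte markers that could be tested. They were negative for 4 and positive for 6 of the 10 RPE markers, and for 4 and 4 of the 8 endothelial markers. Y-linked transcripts were high in 4 of the 8 INK-ATTAC and 3 of the 7 control libraries and near 0 in the others, and the labels give no sex. No marker passed the test with adjustment, and none was at 0 in every library. In whole tissue, fewer cells of a type and less RNA per cell cannot be told apart. The part of these tissues in the values below was not tested, except where a fit with muscle, rod or Y-linked level is named.

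In the libraries of the INK-ATTAC mice, transcripts of the autophagy machinery stood at nearly the level of the controls at every step. With edgeR's quasi-likelihood test 0 of the 42 genes had an adjusted p under 0.05, against 0% of all 17991 genes tested, and their lowest adjusted p was 1.00. DESeq2 and limma-voom with sample quality weights also called 0 of the 42. At an unadjusted p under 0.05 there were 2 of 42 (4.76%), against 4.14% of all genes, a share near the background. The first was Rb1cc1 with a negative fold change (1.94% of all genes were under 0.05 in that direction) and the second Map1lc3a with a positive one (2.2% of all genes). For 0 of the 42 did the ranges of the groups fail to overlap, against 0.0222% of all genes.

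The precision of these comparisons can be read from the intervals. The median SE of the log2 fold change was 0.08. All 42 of the 95% intervals lay between -0.39 and 0.42 on the log2 scale, and these intervals are not adjusted for the number of genes. The variation between libraries was small for these genes, with a median biological coefficient of variation of 0.131 against 0.202 over all genes, while their median level of 38.5 CPM was above the 9.04 CPM of all genes. Counts per library ran from 230 to 602 for Uvrag, the lowest, up to 23175 to 36855 for Gabarap.

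Fold changes were negative for 30 of the 42 genes (71.4%), against 50.2% of all genes tested. Their median was -0.04, with -0.00097 over all genes. The sum over the 42 genes had a mean and SD of 4033 ± 91.5 CPM over the 8 INK-ATTAC libraries and 4096 ± 158 CPM over the 7 controls, and it ranged over 3877 to 4165 CPM in INK-ATTAC libraries and 3789 to 4228 CPM in controls, so the controls spanned the INK-ATTAC range. The count of negative values was 24 of 42 with muscle level as a covariate, where 46.9% of all genes were negative, and 27 to 33 of 42 in the other settings. The lean of this list toward negative values was already known when the 42 genes were listed, so it is given as a description.

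**Figure D1:**
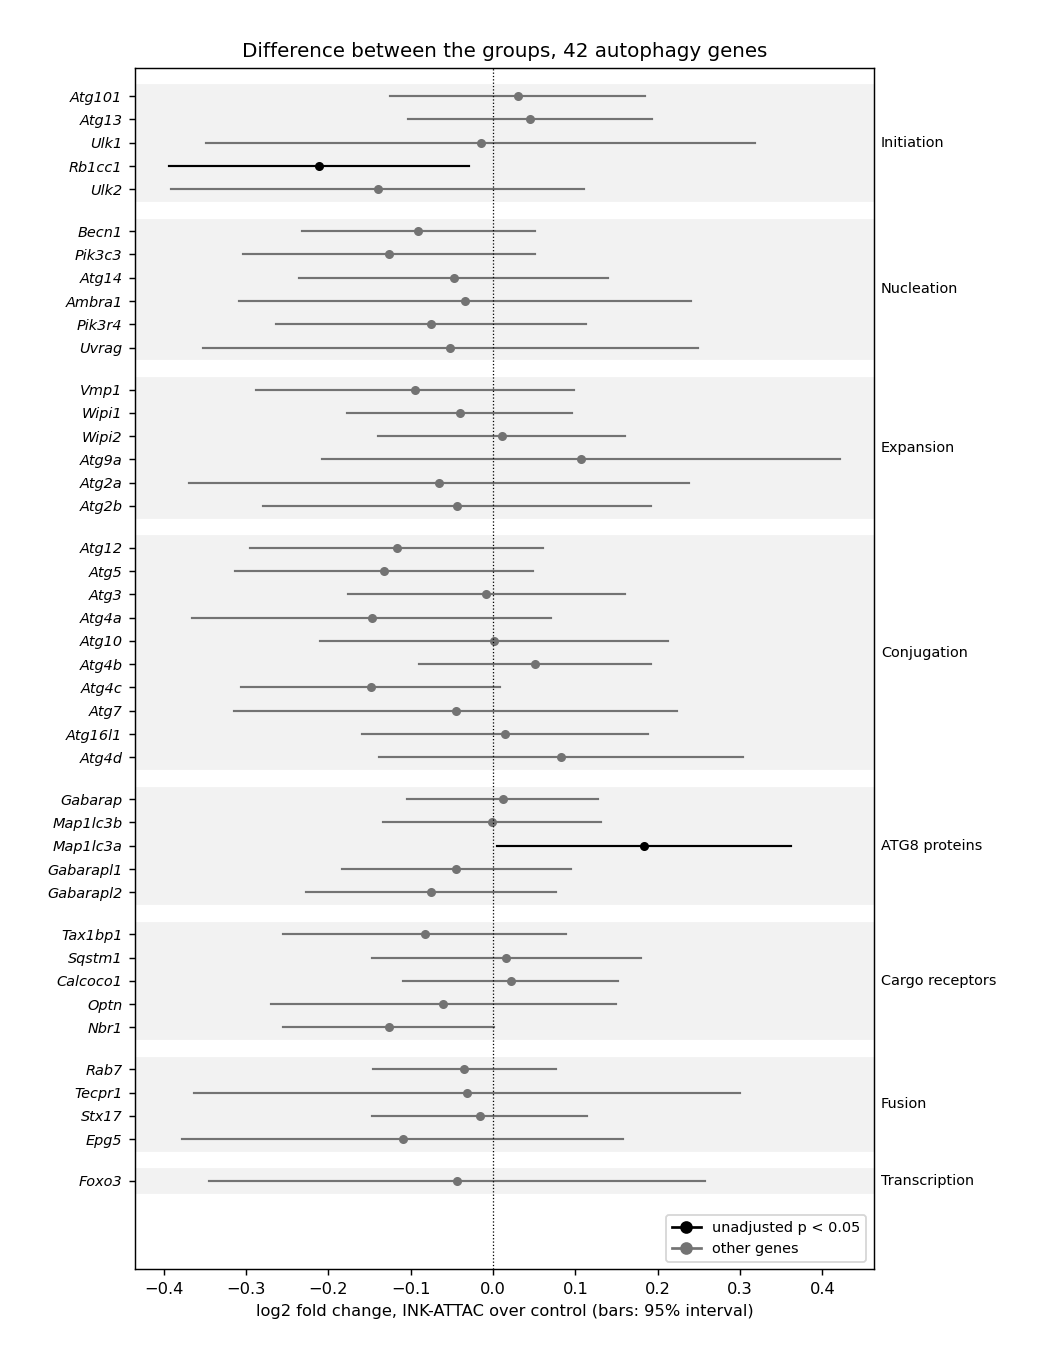
Log2 fold change (INK-ATTAC over control) of the 42 genes by step, with points for the edgeR estimate and bars for its 95% interval, unadjusted. All intervals lie between -0.39 and 0.42, and those of Rb1cc1 and Map1lc3a alone do not cross 0.

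Initiation rests on a complex in which the kinases ULK1 and ULK2 act with the scaffold RB1CC1, also called FIP200, and with ATG13 and ATG101. Fold changes were negative for 3 of the 5 genes and positive for 2, with a median of -0.02. Rb1cc1 is on chromosome 1 from 6206197 to 6276648 (GRCm38, plus strand). It stood at 14.8, 18.5 and 20.6 CPM (lowest, median and highest) in INK-ATTAC libraries and at 18.6, 19.7 and 25.2 CPM in controls. Of the 8 INK-ATTAC libraries 7 were below the control median and 4 below the lowest control, but the ranges overlapped. Its log2 fold change was -0.21 (SE 0.09, 95% interval -0.39 to -0.03), with an unadjusted p of 0.0253 and an adjusted p of 1.00 by edgeR. Its unadjusted p was over 0.05 without control 4 (log2 fold change -0.18), without control 5 (-0.17) and with limma-voom and quality weights (-0.15).

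The other 4 genes of the initiation complex showed smaller differences. Ulk2 stood at 11.3, 14.2 and 17.3 CPM in INK-ATTAC libraries and at 12.4, 16.1 and 19.0 CPM in controls, a log2 fold change of -0.14 (SE 0.12). Ulk1 stood at 10.6, 13.4 and 16.3 CPM in INK-ATTAC libraries and at 8.49, 13.8 and 18.4 CPM in controls (log2 fold change -0.02, SE 0.16). Control libraries thus spread on both sides of the INK-ATTAC range for Ulk1, and its coefficient of variation among controls, 27.8%, was the highest of any of the 42 genes in either group. Atg13 (0.04, SE 0.07) and Atg101 (0.03, SE 0.07) had positive log2 fold changes within their standard errors.

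Nucleation depends on the lipid kinase PIK3C3, also called VPS34, which makes phosphatidylinositol 3-phosphate on the growing membrane. It works with PIK3R4 and BECN1, and with either ATG14, which directs it to autophagosomes, or UVRAG, which directs it to endosomes. Fold changes of all 6 genes of this step were negative, with a median of -0.06, but 0 of the 6 had an unadjusted p under 0.05. Pik3c3 stood at 22.8, 27.9 and 36.5 CPM in INK-ATTAC libraries and at 27.5, 31.99 and 32.8 CPM in controls, a log2 fold change of -0.13 (SE 0.08, unadjusted p = 0.1503 by edgeR). The INK-ATTAC libraries of Pik3c3 therefore held both the lowest and the highest value. Becn1 stood at 35.2, 38.1 and 44.0 CPM in INK-ATTAC libraries and at 38.0, 40.4 and 46.1 CPM in controls (log2 fold change -0.09, SE 0.07). In the annotation 43.9% of the exon bases of Becn1 are shared with Cntd1 on the other strand, and as no strand setting of the counting is stated, reads of the genes may have been counted for either. Pik3r4 (-0.07, SE 0.09), Atg14 (-0.05, SE 0.09), Uvrag (-0.05, SE 0.14) and Ambra1 (-0.03, SE 0.13), whose product binds BECN1, lay closer to 0. Uvrag shares 17.6% of its exon bases with the antisense gene Gm45187.

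Membrane expansion uses ATG9A and VMP1, which move lipids between membrane leaflets, ATG2A and ATG2B, which carry lipids from the endoplasmic reticulum, and WIPI1 and WIPI2, which bind phosphatidylinositol 3-phosphate. Fold changes were negative for 4 of the 6 genes, with a median of -0.04, and 0 of 6 had an unadjusted p under 0.05. Vmp1 stood at 123, 145 and 162 CPM in INK-ATTAC libraries and at 126, 141 and 182 CPM in controls (log2 fold change -0.09, SE 0.09), so the median was higher in INK-ATTAC libraries while the mean was not. Atg9a stood at 8.02, 9.53 and 12.99 CPM in INK-ATTAC libraries and at 6.44, 9.93 and 12.3 CPM in controls (0.11, SE 0.15), and 31.8% of its exon bases are shared with Gm29253 on the same strand. Its interval reached 0.42, the highest bound of the 42. Log2 fold changes were -0.07 for Atg2a (SE 0.14), -0.04 for Atg2b (SE 0.11), -0.04 for Wipi1 (SE 0.06) and 0.01 for Wipi2 (SE 0.07).

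The conjugation system joins ATG8 proteins to phosphatidylethanolamine in the membrane. ATG7 activates ATG8 and ATG12, ATG3 and ATG10 carry them onward, the complex of ATG12, ATG5 and ATG16L1 sets the place of attachment, and the ATG4 proteases trim ATG8 proteins and release them again. Of the 10 genes 6 had negative and 4 positive fold changes, with a median of -0.03, and 0 of 10 had an unadjusted p under 0.05. Atg4c came nearest, at 20.9, 26.1 and 27.1 CPM in INK-ATTAC libraries and 24.1, 26.8 and 31.4 CPM in controls, a log2 fold change of -0.15 (SE 0.07, unadjusted p = 0.0629 by edgeR). Atg4a had the same fold change with a wider error (-0.15, SE 0.10), at 27.8, 33.2 and 37.5 CPM in INK-ATTAC libraries and 27.4, 34.2 and 49.7 CPM in controls, where control 5 held the highest value. Atg4b (0.05, SE 0.07) and Atg4d (0.08, SE 0.11) had positive fold changes, and Atg4d shares 19.3% of its exon bases with Kri1. For Atg4d all 8 INK-ATTAC libraries were above the control median but 0 above the highest control (unadjusted p = 0.4435 by edgeR).

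Among the other conjugation genes, Atg5 stood at 39.3, 42.3 and 49.8 CPM in INK-ATTAC libraries and at 40.6, 45.7 and 57.1 CPM in controls (log2 fold change -0.13, SE 0.09). Atg12 stood at 79.9, 89.1 and 106 CPM in INK-ATTAC libraries and at 83.3, 98.2 and 116 CPM in controls (-0.12, SE 0.08). For Atg5, 5 of the 8 INK-ATTAC libraries were below the control median and 3 below the lowest control. For Atg12 these counts were 6 and 3. The ranges of the groups overlapped for both genes, and the highest library was control 5. Atg7 (-0.05, SE 0.13), Atg3 (-0.01, SE 0.08), Atg16l1 (0.01, SE 0.08) and Atg10 (0.00, SE 0.10) differed by less than their standard errors, and Atg10 turned negative with RLE scaling and with DESeq2.

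Promoter sequence was at hand in RefSeq (GRCm38.p6) for 35 of the 42 genes, with 42 start sites, and the 250 bases before each start were searched on both strands for 4 motifs. CACGTG, the E-box core that TFEB, a regulator of autophagy and lysosome genes, can bind, was in 3 of 42 windows (7.14%), against 6.02% of all 32851 windows in the table. Its longer form TCACGTGA was in 2.38% of the windows of these genes and 0.785% of all, the FOXO core GTAAACA in 0% and 3.17%, and the antioxidant response core TGACNNNGC in 16.7% and 10.2%. The 7 windows with TGACNNNGC belonged to Atg13, Rab7, Tax1bp1, Ulk2 and Vmp1 only, with more than 1 of them at Vmp1. The search began with TCACGTGA and was widened to CACGTG, which it contains, after 1 match was seen. The share of windows with CACGTG was near that of all windows, so it is not read as a trait of these genes. G and C made up 58.6% of the bases in windows of these genes and 53.2% in all windows. The 3 genes with the E-box core were Atg3, Atg5 and Atg7. Their matches are shown with up to 40 flanking bases to let the place of the core be seen, with the core in capitals, 5′ to 3′ on the plus strand. Atg3 holds it at 2 places, with first bases 94 and 71 bases before the start, Atg5 at 14 bases and Atg7 at 132 bases before the start. The Atg3 and Atg7 starts are RefSeq ones that lie inside the genes as GENCODE draws them. The Atg3 stretch, which ends at 45158803, runs past the GENCODE start of that gene at 45158785.
Atg3, chr16:45158695-45158803: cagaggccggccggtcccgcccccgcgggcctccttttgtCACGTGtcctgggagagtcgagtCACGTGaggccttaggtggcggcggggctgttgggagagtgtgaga
Atg5, chr10:44268285-44268338: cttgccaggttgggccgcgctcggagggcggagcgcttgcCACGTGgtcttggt
Atg7, chr6:114670924-114671009: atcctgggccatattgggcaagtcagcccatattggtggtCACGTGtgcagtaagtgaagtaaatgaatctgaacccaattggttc

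The ATG8 family makes up the coat of small proteins on the autophagosome, with the LC3 branch (Map1lc3a, Map1lc3b) and the GABARAP branch (Gabarap, Gabarapl1, Gabarapl2). Fold changes were negative for 3 of the 5 genes and positive for 2. Map1lc3a is on chromosome 2 from 155276297 to 155278073 (GRCm38, plus strand). It stood at 169.9, 201 and 218 CPM in INK-ATTAC libraries and at 141, 165 and 212 CPM in controls. All 8 INK-ATTAC libraries were above the control median and 2 above the highest control, and the ranges overlapped. Its log2 fold change was 0.18 (SE 0.08), with an unadjusted p of 0.0447 and an adjusted p of 1.00 by edgeR.

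Map1lc3a was highest in INK-ATTAC 2 (218 CPM), 6 (214.5 CPM) and 1 (211 CPM) and in control 3 (212 CPM), where the muscle markers summed to 3510, 2303, 3564 and 1713 CPM in that order of libraries. Control 1, with 2526 CPM of muscle markers, held 163 CPM of Map1lc3a. The log2 fold change of Map1lc3a was 0.08 (unadjusted p = 0.357 by edgeR) with muscle level as a covariate. The unadjusted p was also over 0.05 with rod level, with the level of Y-linked genes and with DESeq2 on all genes with a count. In each of these fits the log2 fold change of Map1lc3a was 0.18. Leaving out any of controls 1, 2, 4, 6 and 7 or INK-ATTAC 1, 2, 4, 6 and 8 also took the unadjusted p over 0.05, with fold changes of 0.14 to 0.24 over all 15 such fits. For Rb1cc1 the fold change with muscle level was -0.23, and its unadjusted p remained under 0.05.

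**Figure D2:**
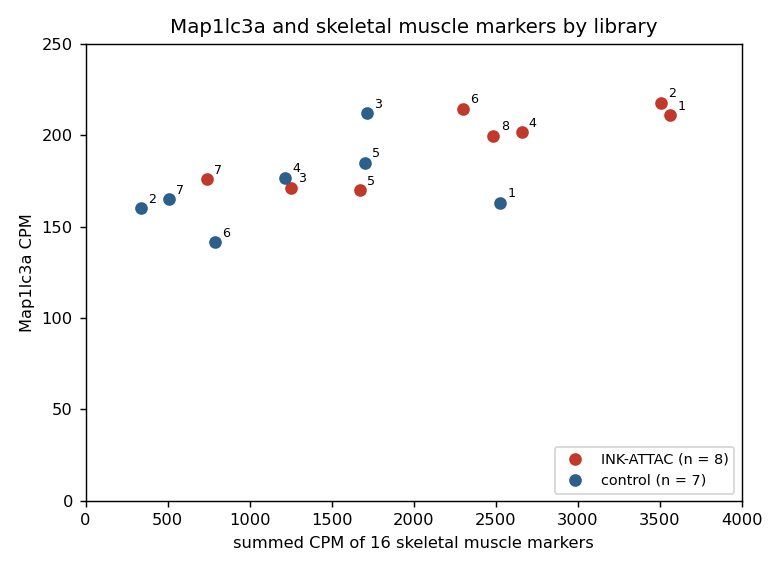
Map1lc3a (CPM, vertical axis) against the summed level of 16 skeletal muscle markers (CPM, horizontal axis), 1 point per library with its library number, INK-ATTAC and control in separate colours. Muscle sums reach 3564 CPM in INK-ATTAC libraries and 2526 CPM in controls; the pair of measures was plotted after its values were seen.

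The other ATG8 genes stayed close to the controls. Map1lc3b stood at 558, 639 and 683 CPM in INK-ATTAC libraries and at 562, 601 and 694 CPM in controls (log2 fold change -0.00072, SE 0.06), and its sign turned under several settings. Gabarap stood at 502, 556 and 611 CPM in INK-ATTAC libraries and at 502, 566 and 593 CPM in controls (0.01, SE 0.06). Gabarapl1 (-0.04, SE 0.07) and Gabarapl2 (-0.07, SE 0.07) had negative fold changes, and Gabarapl1 shares 28.3% of its exon bases with 1700101I11Rik on the other strand. Reads of Map1lc3b can be shared with 4 near-identical processed pseudogenes, of which Gm6055 matches over 378 bases at 99.74% and averaged 879 counts per library, beside 31755 for Map1lc3b. Gabarapl2 has 3 such copies and Rab7 and Atg2b 1 each.

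Levels of different genes were compared per kilobase of the longest principal transcript. Within the ATG8 family Gabarap took 41.2 ± 1.04% of the summed level in INK-ATTAC libraries (SD, n = 8) and 41.6 ± 0.58% in controls (SD, n = 7). Map1lc3b took 24.8 ± 1.76% in INK-ATTAC libraries and 25.2 ± 1.04% in controls. Map1lc3a took 17.6 ± 1.32% in INK-ATTAC libraries and 15.7 ± 1.15% in controls. Gabarapl1 took 9.28 ± 0.88% in INK-ATTAC libraries and 9.76 ± 0.62% in controls, and Gabarapl2 took 7.18 ± 0.38% in INK-ATTAC libraries and 7.70 ± 0.39% in controls. By this length Map1lc3b exceeded Map1lc3a in 15 of 15 libraries, but by the length of all exons together in 0 of 15, so the order of these genes depends on which transcripts are made. Gabarap exceeded Map1lc3a in 15 of 15 libraries by either length.

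**Figure D3:**
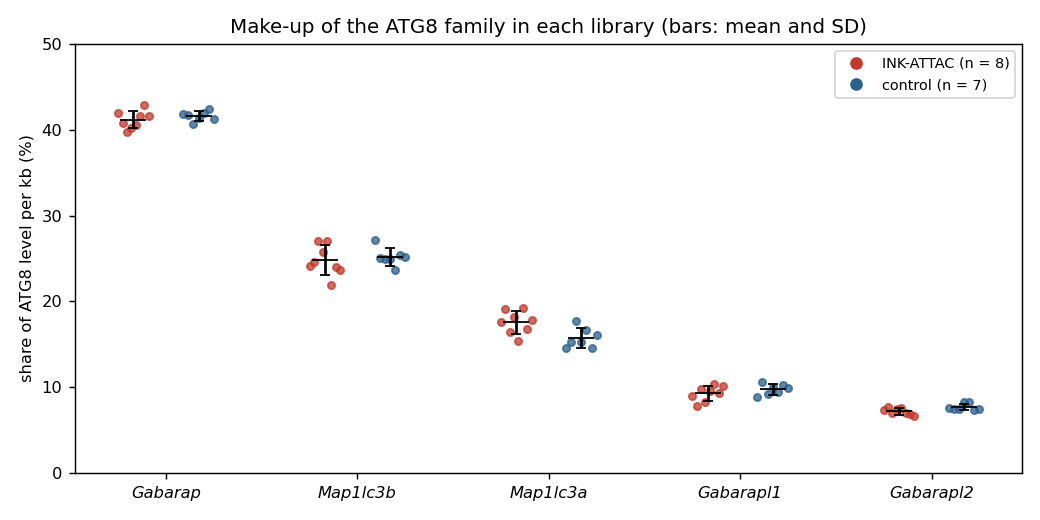
Share of each ATG8 gene in the family's summed level (percent, CPM per kilobase of principal transcript), 1 point per library, with INK-ATTAC left of control for each gene and bars for the mean and SD. Gabarap holds the largest share in every library, on average 41.2% in INK-ATTAC libraries and 41.6% in controls.

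Cargo receptors bind ATG8 proteins on one side and marked cargo on the other. SQSTM1, also called p62, and NBR1 take ubiquitin-tagged proteins, OPTN and TAX1BP1 take damaged mitochondria and aggregates, and CALCOCO1 takes parts of the endoplasmic reticulum and Golgi. Fold changes were negative for 3 of the 5 genes, with a median of -0.06, and 0 of 5 had an unadjusted p under 0.05. Nbr1 stood at 70.6, 78.9 and 86.8 CPM in INK-ATTAC libraries and at 78.6, 86.0 and 93.2 CPM in controls. The INK-ATTAC libraries reached lower and the controls higher, with overlap between, and the log2 fold change was -0.13 (SE 0.06, unadjusted p = 0.0529 by edgeR). Sqstm1, whose protein builds up when autophagy is blocked and whose transcript responds to oxidative stress, stood at 155, 174 and 207 CPM in INK-ATTAC libraries and at 145, 179.8 and 202 CPM in controls (0.02, SE 0.08). Sqstm1 shares 17.3% of its exon bases with Mrnip. Tax1bp1 stood at 299.6, 336 and 391 CPM in INK-ATTAC libraries and at 307, 352 and 429.7 CPM in controls (-0.08, SE 0.08). Optn (-0.06, SE 0.10) and Calcoco1 (0.02, SE 0.06) differed by less than their standard errors.

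The last step brings the closed autophagosome to the lysosome, through the tethering factor EPG5, the fusion protein STX17, the small GTPase RAB7 and TECPR1, which binds the ATG12 and ATG5 conjugate. All 4 genes had negative fold changes, with a median of -0.03, and 0 of 4 had an unadjusted p under 0.05. Rab7 stood at 379, 419 and 454 CPM in INK-ATTAC libraries and at 401, 426 and 443 CPM in controls (log2 fold change -0.03, SE 0.05), and its coefficient of variation among controls, 3.36%, was the lowest of the 42. Stx17 (-0.02, SE 0.06) also varied little. Epg5 stood at 5.98, 8.32 and 11.1 CPM in INK-ATTAC libraries and at 7.45, 9.41 and 11.3 CPM in controls (-0.11, SE 0.13). Tecpr1 varied widely within both groups, at 71.4, 98.8 and 119 CPM in INK-ATTAC libraries and 68.6, 110.5 and 123 CPM in controls (-0.03, SE 0.16). Foxo3, which activates autophagy genes in muscle, stood at 31.8, 43.4 and 64.2 CPM in INK-ATTAC libraries and at 37.6, 46.2 and 62.4 CPM in controls (-0.04, SE 0.14).

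**Figure D4:**
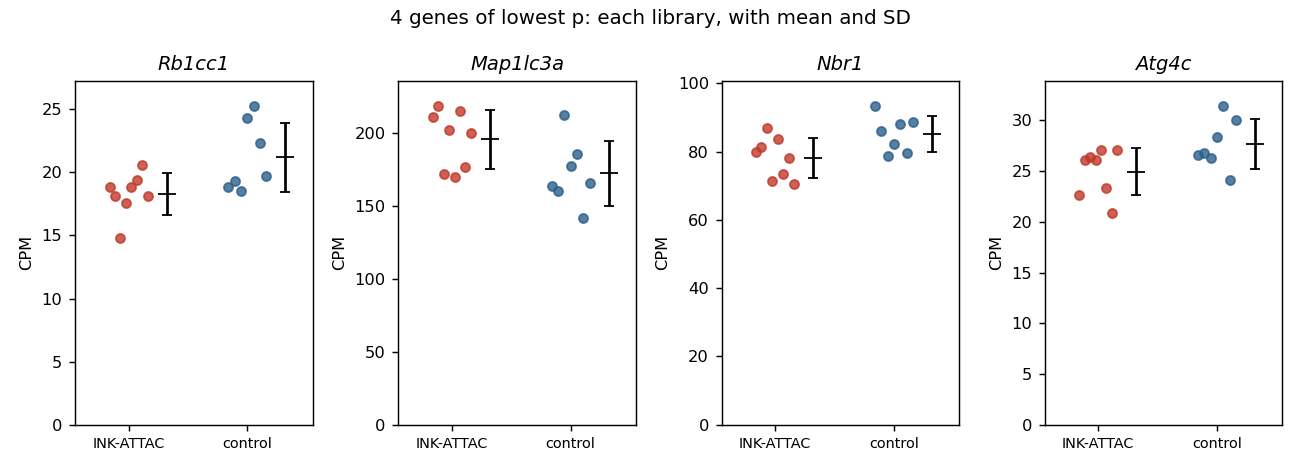
CPM in every library for the 4 genes of lowest unadjusted p (Rb1cc1, Map1lc3a, Nbr1 and Atg4c), INK-ATTAC left of control, with 1 point per library and bars for the mean and SD. They were chosen for plotting by their p, and for each the groups overlap.

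Across the machinery as a whole, levels per kilobase ran from 0.911 for Epg5 to 409.8 for Gabarap, averaged over the 15 libraries. The highest after Gabarap were Map1lc3b (247), Rab7 (195), Map1lc3a (166), Tax1bp1 (107), Gabarapl1 (93.9), Sqstm1 (86.9) and Gabarapl2 (73.6). The lowest besides Epg5 were Uvrag (1.49) and Atg2b (1.68). The median level per kilobase was 166 for the ATG8 genes, 56.1 for the cargo receptor genes and 2.62 for the initiation genes. With the length of all exons Gabarap was still first, while Map1lc3b ranked 5, and Uvrag (0.848) lay below Epg5 (0.876). Wipi1 exceeded Wipi2 in 15 of 15 libraries by either length, and Sqstm1 exceeded Tax1bp1 in 1 of 15 by principal transcript and 15 of 15 by all exons.

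**Figure D5:**
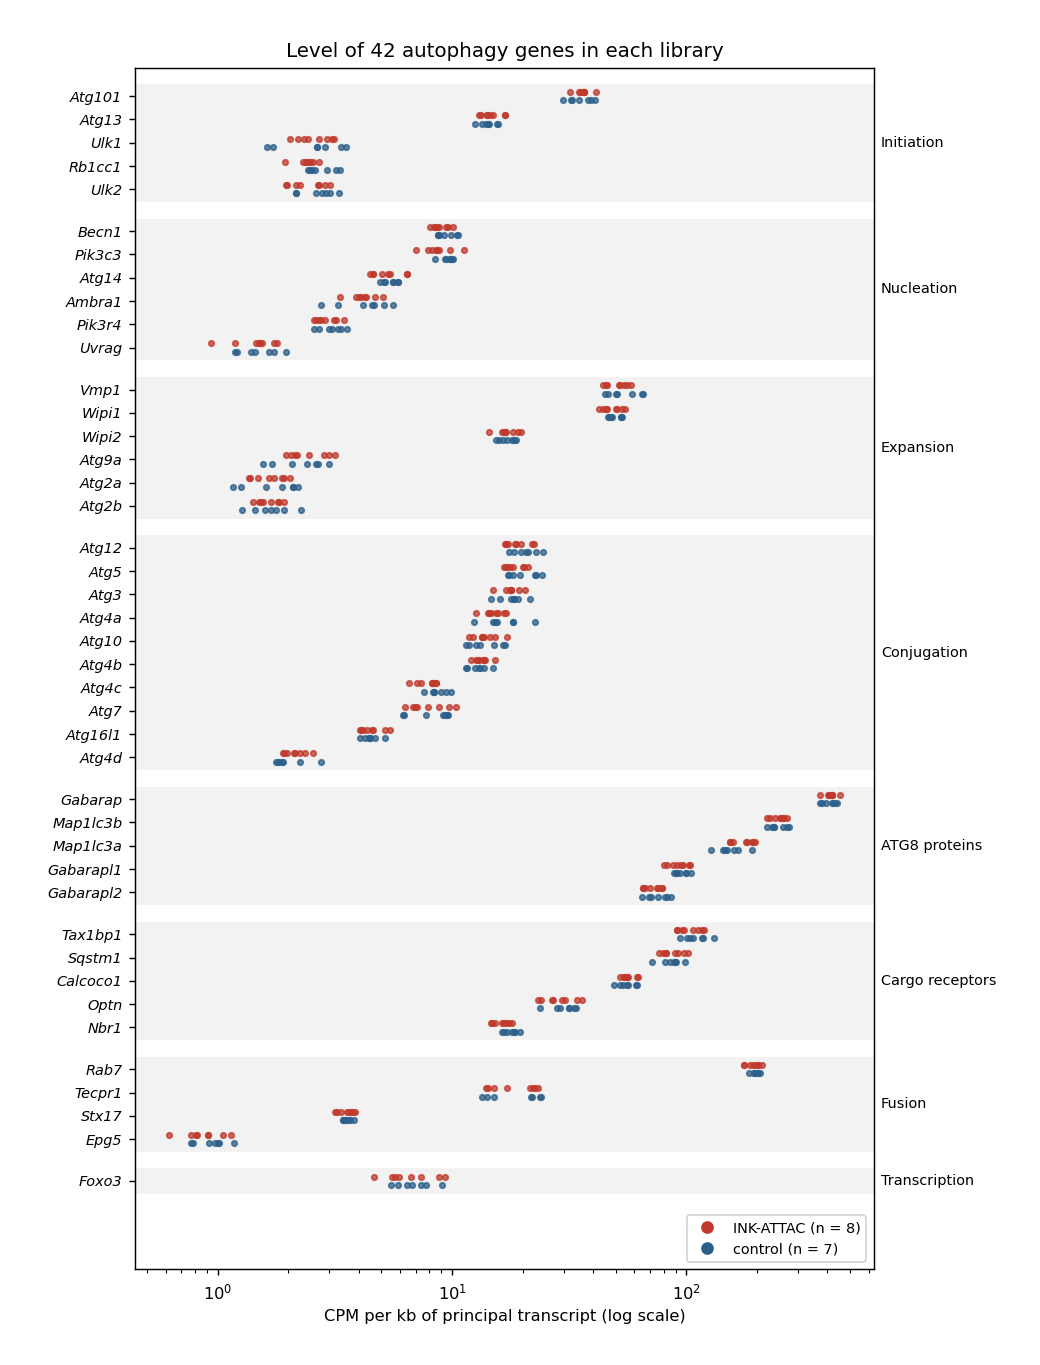
Level of each of the 42 genes (CPM per kilobase of principal transcript, log axis) by step, with INK-ATTAC above control, points for libraries. Gabarap is highest, at 409.8 on average, and Epg5 lowest, at 0.911; by the length of all exons Uvrag is lowest.

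Some libraries held the extreme value of many genes. Control 6 held the highest of 15 values for 7 genes, among them Ulk1, Ulk2, Ambra1 and Atg2a, and the lowest for another 7, among them Atg13, Map1lc3a and Gabarap. It also had the highest sum of endothelial markers (529.8 CPM) and the lowest of RPE markers (63660 CPM). Control 5 held the highest value for 8 genes, among them Rb1cc1, Atg5, Atg12 and Tax1bp1, and the lowest for 5. Control 4 held the lowest for 6 and the highest for 2. INK-ATTAC 7 held the lowest for 6 and the highest for 4, and INK-ATTAC 6 the lowest for 5 and the highest for 2. Mitochondrial transcripts made up 3.28% of counts in control 4 and 3.67% in control 5. The part of any of these in the values was not tested, beyond the fits that left each library out.

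Genes that act beside the 42 were counted from 4 lists of 77 genes in all, every one of them tested. Of these 41 had negative and 36 positive fold changes, with a median of -0.0030. At an unadjusted p under 0.05 there were 4 (5.19%, beside 4.14% of all genes), 1 in each list and all with negative fold changes, and 0 passed with adjustment. In the negative direction alone 1.94% of all genes were under 0.05. These lists were chosen with earlier results known, and their direction was not tested. Mitf, a transcription factor of the RPE and of pigment cells that is related to TFEB, stood at 115, 118 and 162 CPM in INK-ATTAC libraries and at 135, 143 and 190.4 CPM in controls (log2 fold change -0.33, SE 0.10, unadjusted p = 0.0026 by edgeR). All 5 melanocyte markers had negative fold changes too, with a median of -0.07, as did 4 of 10 RPE markers. The part of either cell type in the Mitf value was not tested. Trp53inp1, whose product binds ATG8 proteins, gave -0.28 (SE 0.10). Snap29, the SNARE partner of STX17 in fusion, gave -0.18 (SE 0.07), and Stbd1, a receptor for glycogen, -0.48 (SE 0.22). Each had an adjusted p of 1.00 by edgeR. The level of Stbd1 was low, at 1.11, 2.26 and 2.58 CPM in INK-ATTAC libraries and at 1.73, 2.43 and 4.54 CPM in controls.

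In the authors' deposited table, all 42 genes were among the genes listed, 14442 in number, and 0 had an adjusted p under 0.05, against 0.0208% of its genes. An unadjusted p under 0.05 was given in the authors' deposited table for 2 of them, or 4.76% against 6.42% of its genes. They were Map1lc3a (log2 fold change 0.23, p = 0.00886, adjusted p = 0.653) and Nbr1 (-0.14, p = 0.0249, adjusted p = 0.727), while in the authors' deposited table Rb1cc1 gave -0.15 (p = 0.0692). Fold changes in the authors' deposited table were negative for 31 of 42 (73.8%, against 51.3% of its genes), with a median of -0.05. Its libraries are the same as those of the edgeR fit, so the tables are not independent of each other.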

How the data were processed

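Per the labels' protocols, RPE/choroid samples went into TRIzol, NucleoSpin columns gave the RNA, and SMARTer was used to amplify cDNA. Per the submitters' processing notes, bcl2fastq, DRAGEN, edgeR and limma were used with genome build GRCm38. How reads were counted, with which strand setting and annotation, is not given in the sources used here. The authors deposited raw read counts per Ensembl gene. They also deposited a comparison table with, per the file headers, log2 fold changes and log2 CPM, p-values and adjusted p-values, and scores (moderated t and log-odds) that were not used. Of 40757 entries, 276 repeats with identical counts were collapsed.

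Genes were filtered with filterByExpr and libraries scaled by TMM, using edgeR 4.0.16 under R 4.3.3. The test was the quasi-likelihood F-test of INK-ATTAC against control, two-sided, without covariates, with Benjamini-Hochberg adjustment over all 17991 genes and a threshold of 0.05. SE is the absolute log2 fold change over the square root of F. CPM are on TMM library sizes. Alternatives used DESeq2 1.42.0 and limma 3.58.1. The fits were tested on simulated data, where DESeq2 made more false calls than edgeR or voom; the limit on false calls in that test was loosened after DESeq2 exceeded it. Lengths are of the longest principal transcript (GENCODE, GRCm38), chosen in place of all exons after values were seen, and both are given where they differ. No within-group pair of libraries agreed within sampling noise (lowest chi-square per gene 28.0 over 49 pairs). SMARTer copies are not independent molecules, so depth overstates precision.

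The 42 genes, the other lists and the markers were chosen with earlier results of these data known. All 42 genes are named, with up to 3 genes of lowest unadjusted p under 0.05 from each other list (each list held 1) and 6 genes of the study's design.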

Additional observations from a re-analysis of the deposited data

How the results depend on the processing

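With 11 other settings and 15 fits that left out 1 library each, no adjusted p of the 42 genes fell below 0.71, so 0 were called. Of 1092 values 997 kept their direction and 95 turned, and 23 genes turned in no setting, 18 of them with negative fold changes. Over all genes DESeq2 called 6, limma-voom with sample quality weights 2 and edgeR 0. DESeq2 was first run on all genes with a count, where it called 8 genes and had 1 of the 42 at an unadjusted p under 0.05, and was then restricted to the genes of the edgeR filter, a choice made after seeing that result. At an unadjusted p under 0.05 there was 1 of the 42 with the replicate block by title number (4.08% of all genes), 1 with rod level (3.45%) and 4 with muscle level (Rb1cc1, Becn1, Atg4a and Gabarapl2; 5.08%). Over the fits without 1 library there were 0 to 4, beside 3.09% to 6.17% of all genes, with 0 without control 4. Over those fits 0 genes were called in all, and the median of the 42 ran from -0.06 to -0.02. The cause of these changes was not tested.

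Log2 fold changes that turned were, with muscle level, Ulk1 0.051, Uvrag 0.061, Ambra1 0.081, Atg2a 0.10, Atg2b 0.010, Atg7 0.11, Atg10 -0.11, Atg16l1 -0.0062, Gabarap -0.046, Epg5 0.0016, Tecpr1 0.19, Foxo3 0.12. With limma-voom and quality weights they were Atg101 -0.00031, Wipi2 -0.0092, Atg3 0.025, Map1lc3b 0.021, Sqstm1 -0.013, Calcoco1 -0.011, Stx17 0.00019. With rod level they were Uvrag 0.0099, Wipi2 -0.00042, Map1lc3b 0.018, and with the replicate block by title number Ulk1 0.011, Map1lc3b 0.0072. With the replicate block by description number they were Ulk1 0.031, Wipi2 -0.0043, Gabarap -0.0073. Atg10 gave -0.00073 with DESeq2, -0.00064 with DESeq2 on all genes with a count and -0.0010 with RLE scaling. Map1lc3b gave 0.0020 with a filter of CPM above 1 in 7 libraries and 0.0019 without a low-count filter. Leaving out 1 library gave ranges across 0 for Ulk1 -0.11 to 0.070, Atg101 -0.0090 to 0.057, Uvrag -0.11 to 0.022, Ambra1 -0.13 to 0.038, Atg2b -0.10 to 0.036, Wipi2 -0.023 to 0.033, Atg3 -0.051 to 0.030, Atg10 -0.060 to 0.045, Atg16l1 -0.027 to 0.050, Map1lc3b -0.031 to 0.022, Gabarap -0.018 to 0.031, Sqstm1 -0.034 to 0.052, Calcoco1 -0.0076 to 0.038, Stx17 -0.044 to 0.0059, Tecpr1 -0.11 to 0.031, Foxo3 -0.13 to 0.032.

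Libraries carry a number in the title and another in the description, and in the controls these differ by 1. Libraries of the groups were correlated after each gene's group mean was subtracted from its log2 CPM, so the values describe deviations and not whole profiles. By title number, correlations of same-numbered libraries ran from -0.10 to 0.29, 4 of 7 were over 0.1, and 4 of 7 INK-ATTAC libraries correlated best with their own number. By description number they ran from -0.15 to 0.23, 2 of 7 were over 0.1 and 1 of 7 was the best match. In both groups Y-linked transcripts were high up to description number 4 and near 0 from number 5. By title number they were high up to 4 in INK-ATTAC libraries and up to 3 in controls. Neither numbering was taken to pair the libraries, and what the numbers stand for was not tested. Fits with each numbering as a block are given. The block by description number was chosen after seeing the data, and with it 2 of the 42 genes, Rb1cc1 and Map1lc3a, had an unadjusted p under 0.05 (4.17% of all genes) and 0 were called. With the block by title number the unadjusted p of Map1lc3a was over 0.05. The number of libraries and their spread, with a median SE of 0.08, limit what can be seen. The unadjusted intervals do not mark what can be called after adjustment. Those of Rb1cc1 and Map1lc3a did not cross 0 by edgeR, and neither gene was called.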

Other observations

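Values of Tecpr1 left a gap within both groups that the labels do not account for. Taken in number order, the 8 INK-ATTAC libraries held 87.7, 71.4, 110.0, 72.7, 77.1, 119, 113 and 115 CPM, and the 7 controls held 76.8, 122, 113, 72.2, 68.6, 110.5 and 123 CPM. No library of either group lay between 87.7 and 110.0 CPM. Atg9a split the libraries in the same way. It held 8.02 to 8.95 CPM in INK-ATTAC 1, 2, 4 and 5 and 10.1 to 12.99 CPM in the other INK-ATTAC libraries. In controls 1, 4 and 5 it held 6.44 to 8.53 CPM, and in the other controls 9.93 to 12.3 CPM. Vmp1 ran the other way in controls, at 163 to 182 CPM in controls 1, 4 and 5 and 126 to 141 CPM elsewhere. These patterns were noticed after the values were seen and were not tested.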
